A study of Mus musculus with 24 samples.

Results

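The effect of the human papillomavirus 16 (HPV16) E7 oncoprotein on the skin transcriptome was compared between skin grafts and intact ear skin of the mouse. The measure was a difference of differences per gene: the log2 difference of E7 over C57BL/6 skin in grafts at 14 days after grafting, minus the same difference in ear skin at 8 weeks of age. It drew on 12 of the 24 libraries of the series, 3 in each of 4 groups. E7 grafts were grafted ear skin of K14E7 donors on C57BL/6 recipients, and C57 grafts were grafted ear skin of C57BL/6 donors on recipients of the same strain. E7 ear was whole ear skin of K14E7 mice and C57 ear that of C57BL/6 mice. In K14E7 mice the transgene is driven by the keratin 14 promoter, which is active in the basal layer of stratified epithelia. All recipients were C57BL/6 mice without the transgene, and a graft also holds recipient cells such as blood cells and ingrown vessels. The age of the graft donors was not given, and the labels do not say whether a library came from 1 animal or a pool. Where libraries of a group shared animals, the p-values would measure only technical spread.

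E7 binds the retinoblastoma protein and releases E2F transcription factors, which drive the genes of DNA synthesis. Genes of mitosis are switched on later in the cell cycle by B-MYB and FOXM1 together with the MuvB complex, which binds the cell cycle homology region (CHR) of their promoters. In skin, K14E7 epidermis is thickened and inflamed, and keratinocytes at a healing edge or in a fresh graft also divide and switch on stress keratins and small proline-rich proteins in the absence of any oncoprotein.

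Library totals were 6726995 to 9937396 counts in the 6 graft libraries and 10540081 to 13814448 in the 6 ear libraries, and mitochondrial genes held 1.495 to 1.86% of the counts in grafts and 2.01 to 3.39% in ear. The first principal component held 59.6% of the variance and set grafts apart from ear, and the second held 26.4% and set E7 apart from C57 in both tissues. The biological coefficient of variation was 0.148 among grafts and 0.0848 among ear libraries. Ear libraries were sequenced on flow cell C1RWBACXX and grafts on C374UACXX. A shift between flow cells that is the same for both genotypes cancels in the difference of effects, but within a genotype graft and ear cannot be told apart from flow cell, age and handling.

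Reads of the E7 transgene followed the labels, at 33.3, 40.2 and 38.0 CPM (counts scaled to a common library size with TMM factors) in E7 grafts, 0 in each C57 graft, 55.5, 53.7 and 41.1 CPM in E7 ear, and 0, 0.0759 and 0.137 CPM in C57 ear. Every E7 graft was below every E7 ear library. No fold is given for the transgene, since C57 libraries held 0 to 3 counts over a group. Krt14, whose promoter drives the transgene, averaged 7809 ± 977 CPM in E7 grafts, 4892 ± 1072 CPM in C57 grafts, 5903 ± 791 CPM in E7 ear and 3804 ± 194 CPM in C57 ear (SD, n = 3 each).

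Tissue markers were read against the label of grafted ear skin. Krt5 of basal keratinocytes averaged 5241 ± 175 CPM in E7 grafts, 4564 ± 628 CPM in C57 grafts, 5662 ± 411 CPM in E7 ear and 5706 ± 250 CPM in C57 ear. Of the cartilage markers, the proteoglycan gene Acan was read in every library, while Matn1 had 0 counts in E7 grafts, E7 ear and C57 ear. E7 graft replicate 1 was far below the other E7 grafts for Acan (7.03 CPM, against 42.6 and 31.1). The same held for Col2a1 (3.90 CPM, against 37.0 and 59.9), Col9a1 (0.937 CPM, against 8.57 and 9.62) and Cnmd (0 CPM, against 8.68 and 12.3). Hoxc8, a homeobox gene of trunk position, stood at 8.12, 2.39 and 3.51 CPM in E7 grafts, against 10.1, 15.4 and 7.53 CPM in C57 grafts, and had 0 counts in all ear libraries, where 3 counts would be 0.217 to 0.285 CPM. Hoxc9 and Hoxa9 were likewise read in each graft, at lower levels, and had 0 counts in all ear libraries. Grafts labelled as ear skin thus held trunk Hox reads that intact ear lacked, and whether these came from donor or recipient tissue was not tested. The summed level of 17 trunk Hox genes was 33.0 to 63.1 CPM in E7 grafts, 50.2 to 101 CPM in C57 grafts, 9.72 to 12.5 CPM in E7 ear and 19.4 to 23.2 CPM in C57 ear. The summed level of 24 hair follicle genes was 2848 to 10040 CPM in E7 grafts, 8212 to 13610 CPM in C57 grafts, 676 to 783 CPM in E7 ear and 499 to 757 CPM in C57 ear. The part of these differences in tissue makeup in the results that follow was not tested.

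Of 16331 genes tested, 2311 had an E7 effect that differed between grafts and ear at an adjusted p below 0.05 (14.2%, edgeR quasi-likelihood test with Benjamini-Hochberg adjustment). The effect was higher in grafts than in ear for 1200 genes (7.35%) and lower for 1111 (6.8%). By tissue, in the same fit of 12 libraries, E7 changed 6044 genes in grafts (37%), with 3220 higher (19.7%) and 2824 lower (17.3%). In ear it changed 9850 genes (60.3%), with 4495 higher (27.5%) and 5355 lower (32.8%). Both tissues shared 1 estimate of the spread per gene, though grafts varied more and had lower totals. With sample weights in limma voom, 5287 genes were called in grafts and 10630 in ear. Higher calls made up 51.9% of the called differences under TMM scaling to its default library, which was an E7 graft, and 34.6% of 2503 calls when an ear library was the scaling standard, with 1977 genes called in both. The choice moved the median difference over all genes between 0.04 and -0.05 on the log2 scale. Differences near 0 are read against a shift of that size. Ear libraries are numbered here as replicates 1 to 3 of each genotype in the order of their labels. The default scaling library also changed in some fits without 1 library, so each library was left out again with an E7 graft held as the scaling library. The higher count was then 697 to 1239, against 504 to 1203 where the scaling library could change. With the graft held it was below 800 without C57 ear replicate 1 (781) or 3 (799) or E7 ear replicate 3 (697). It was 668 in the fit of all 24 libraries, where the median difference over all genes was -0.05.

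Most of the called differences were effects that were smaller in grafts or called in ear alone. Of the 2311 genes, 579 were higher in E7 skin of both tissues with a smaller effect in grafts, and 410 were lower in E7 skin of both tissues with a smaller effect in grafts. A further 1067 had a called effect in ear alone, of which 397 were higher and 670 lower in E7 ear. The reverse was less frequent: 154 had a called effect in grafts alone (73 higher, 81 lower), and 17 were higher in E7 skin of both tissues with a larger effect in grafts. A call in 1 tissue alone also depends on the shared spread and on library depth, whose part was not tested. Among the genes lower in E7 skin of both tissues, 2 had the larger effect in grafts: Dab1, an adaptor of reelin signalling (effect -1.81 in grafts and -0.39 in ear), and Gpx3, a secreted glutathione peroxidase (-2.06 in grafts and -0.93 in ear). Both are named after their values were seen. Opposite called effects were found for 68 genes. A shared effect with no called difference was the larger class over all genes, with 2101 genes higher and 1833 lower in E7 skin of both tissues. Across the 16331 genes the effects in the 2 tissues, which share no library, had a Pearson correlation of 0.645 and a Spearman correlation of 0.705, as a description, since genes are not independent replicates.

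**Figure D1:**
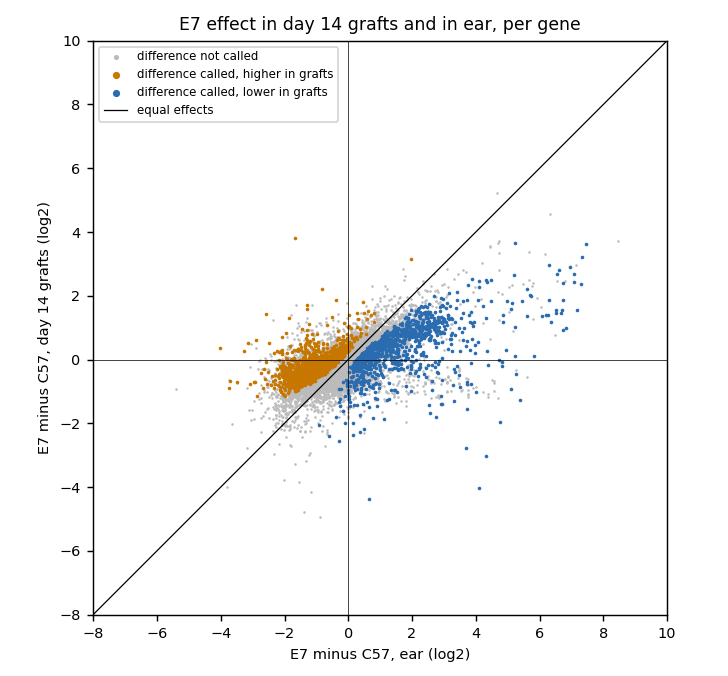
Log2 effect of E7 (E7 minus C57) per gene in day 14 grafts (vertical axis) against ear (horizontal axis) for the 16331 genes tested, with the line of equal effects. Genes with a called difference are orange where the effect was higher in grafts (1200) and blue where it was lower (1111), and most of the blue genes lie right of 0 and below the line.

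The C57 arm moved more than the E7 arm between ear and graft for 1556 of the 2311 called genes (67.3%), against 9418 of all 16331 genes tested (57.7%). Of the 1111 genes with a lower effect in grafts, 669 had a lower level in E7 grafts than in E7 ear (49.3% of all genes tested had), and 1022 had a higher level in C57 grafts than in C57 ear (48.7% of all). Of the 1200 genes with a higher effect in grafts, 778 had a higher level in E7 grafts than in E7 ear (50.7% of all), and 958 had a lower level in C57 grafts than in C57 ear (51.3% of all). These within-genotype counts use log2(CPM + 0.5), carry no test and include the flow cell. The difference of effects equals the change from ear to graft in E7 skin minus that in C57 skin. Genes called for it therefore lean toward these directions by selection, and the shares over all genes are no test of either arm.

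Genes of mitosis had the largest share of called differences of the 37 lists. Of 33 mitosis genes tested, all 33 were higher in E7 skin in grafts and in ear, and 32 had a smaller effect in grafts, against 6.8% of all genes with a lower effect. The median effect was 0.96 in grafts and 2.53 in ear, against -0.02 and -0.05 over all genes, and the median difference was -1.59 against 0.04. Ttk, a spindle checkpoint kinase gene, was the member without a called difference (1.01 ± 0.11 in grafts, 1.29 ± 0.11 in ear, edgeR adjusted p of the difference 0.25; values are ± SE). The summed level of the 33 genes was 2585 to 2888 CPM in E7 grafts, 1269 to 1445 CPM in C57 grafts, 3202 to 3496 CPM in E7 ear and 521 to 748 CPM in C57 ear. C57 grafts had a higher level than C57 ear for 32 of the 33, and E7 grafts had a higher level than E7 ear for 2 of the 33.

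Of 50 DNA replication and E2F target genes tested, all 50 were likewise higher in E7 skin of both tissues, and 27 had a smaller effect in grafts, against 6.8% of all genes with a lower effect. Their median effect was 1.11 in grafts and 1.8 in ear, with a median difference of -0.60. The difference was thus smaller for replication genes than for mitosis genes, by these medians and not by a test. The helicase subunit gene Mcm4 was at 144, 155 and 125 CPM in E7 grafts, 50.5, 46.6 and 47.1 CPM in C57 grafts, 165, 163 and 169 CPM in E7 ear, and 41.6, 42.6 and 43.4 CPM in C57 ear. Its effect was 1.55 ± 0.07 in grafts and 1.96 ± 0.07 in ear (difference -0.41 ± 0.10, edgeR adjusted p = 0.0202). Prim1, a primase subunit gene, had an effect of 2.06 in grafts and 2.22 in ear, with no called difference.

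Promoter windows of both kinds are shown to let the motifs be seen beside the values. The windows run from 250 bases before to 50 bases after the gene start and are from RefSeq (build GRCm38.p6). Capitals mark the E2F motif (TTTGGCGC, TTTCCCGC, TTTCGCGC or TTTGCCGC) and the CHR (TTTGAA), searched on both strands without removal of overlaps between motifs. The E2f7 window (chr10:110745189-110745488, plus strand) holds an E2F motif, read on the other strand. The Cdk1 window (chr10:69352863-69353162, minus strand) holds an E2F motif and 2 CHR motifs, and the Mki67 window (chr7:135716330-135716629, minus strand) holds 2 CHR motifs. Cdk1 was the only mitosis gene whose window held an E2F motif.
E2f7: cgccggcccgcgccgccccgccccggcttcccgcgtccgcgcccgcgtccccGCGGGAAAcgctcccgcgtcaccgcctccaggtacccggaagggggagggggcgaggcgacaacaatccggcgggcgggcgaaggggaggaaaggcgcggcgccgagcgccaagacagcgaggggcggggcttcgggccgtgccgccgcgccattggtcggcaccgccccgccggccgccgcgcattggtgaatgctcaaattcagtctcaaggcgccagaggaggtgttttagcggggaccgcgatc
Cdk1: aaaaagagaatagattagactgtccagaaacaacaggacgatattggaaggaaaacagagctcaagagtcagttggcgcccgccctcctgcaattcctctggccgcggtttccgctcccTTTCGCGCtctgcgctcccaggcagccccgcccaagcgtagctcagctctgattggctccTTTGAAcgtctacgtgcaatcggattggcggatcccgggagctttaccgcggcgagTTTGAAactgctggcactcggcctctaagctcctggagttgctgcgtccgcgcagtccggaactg
Mki67: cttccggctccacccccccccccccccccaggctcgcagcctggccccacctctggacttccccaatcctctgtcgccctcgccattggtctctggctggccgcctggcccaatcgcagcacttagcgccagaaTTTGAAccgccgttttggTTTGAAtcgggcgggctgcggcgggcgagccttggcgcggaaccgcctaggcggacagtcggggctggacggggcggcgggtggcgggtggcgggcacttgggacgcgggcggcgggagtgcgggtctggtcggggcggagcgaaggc

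An E2F motif was found in the windows of 19 of 41 DNA replication and E2F target genes (46.3%) and 1 of 27 mitosis genes (3.7%), against 2.6% of all 27025 genes with a window. The first list was written to hold E2F targets, so its E2F share is no independent result. A CHR was found in 20 of 27 mitosis genes (74.1%) and 7 of 41 DNA replication and E2F target genes (17.1%), against 20.2% of all. Among the 12319 tested genes with a window, the shares were 4.18% for the E2F motif and 15% for the CHR. Windows on chromosome 18 were left out of all motif counts, for lists and for all genes. The CHR was added to the search after the values were seen. These matches describe letters and not bound factors.

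The proliferation marker Mki67 stood at 633, 650 and 581 CPM in E7 grafts, 282, 291 and 233 CPM in C57 grafts, 748, 845 and 830 CPM in E7 ear, and 90.7, 83.9 and 128 CPM in C57 ear. No library of 1 group overlapped another, and C57 grafts stood between the E7 libraries and C57 ear. The Mki67 effect was 1.21 ± 0.14 in grafts and 3.00 ± 0.15 in ear, a difference of -1.79 ± 0.20 (edgeR adjusted p = 0.00025). Cdk1, the mitotic kinase gene, was at 78.6, 84.9 and 74.5 CPM in E7 grafts, 39.2, 37.5 and 40.5 CPM in C57 grafts, 102, 109 and 105 CPM in E7 ear, and 13.4, 14.4 and 18.8 CPM in C57 ear. Its groups fell in the same order without overlap, and the difference of effects was -1.74 ± 0.14 (edgeR adjusted p = 4.79e-05). The differences were -1.88 ± 0.17 for Cenpe, a kinetochore motor gene, and -1.65 ± 0.15 for Cenpa, the centromeric histone gene.

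E2f7, an atypical E2F that represses other E2F targets and is itself one, was at 26.7, 27.1 and 26.4 CPM in E7 grafts, 11.1, 11.7 and 12.6 CPM in C57 grafts, 26.4, 25.8 and 30.3 CPM in E7 ear, and 2.82, 2.43 and 2.75 CPM in C57 ear. E7 grafts and E7 ear overlapped, while each C57 graft was above each C57 ear library. The E2f7 effect was 1.18 ± 0.10 in grafts and 3.36 ± 0.11 in ear (difference -2.18 ± 0.15, edgeR adjusted p = 1.34e-05). Rrm2, the small subunit of ribonucleotide reductase, had a difference of -1.42 ± 0.12, and the activator E2f2 one of -1.39 ± 0.14. Cdkn2a, which encodes p16 and ARF and is repressed by the retinoblastoma protein, was at 4.06, 3.15 and 3.85 CPM in E7 grafts, 1.83, 1.83 and 0.695 CPM in C57 grafts, 7.94, 8.63 and 6.30 CPM in E7 ear, and 0.166, 0 and 0.137 CPM in C57 ear. The 4 groups did not overlap. Its difference was -4.73 ± 0.65 (edgeR adjusted p = 0.000677), a size that rests on 4 counts over the C57 ear group and depends on the prior count of the fit.

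**Figure D2:**
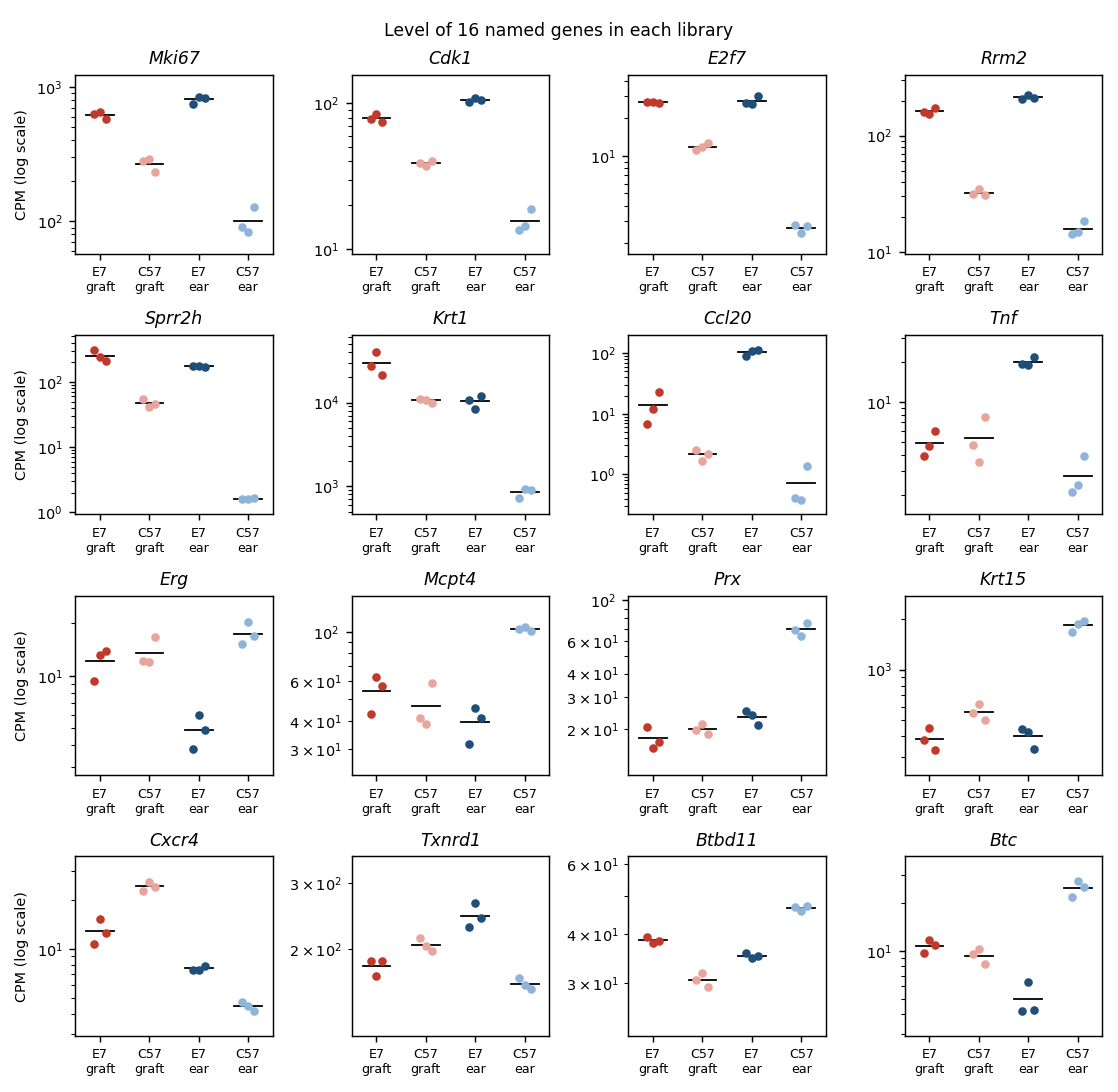
Level of 16 named genes in each of the 12 libraries, in CPM on a log scale that differs between panels, with a line at the mean of each group of 3. Groups run from left to right as E7 graft, C57 graft, E7 ear and C57 ear, and for the cell cycle genes in the top row the C57 grafts lie above C57 ear.

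Wound-associated epidermal genes had the lowest median difference of the 37 lists. Of 21 wound-associated epidermal genes tested, 11 had a smaller effect in grafts, against 6.8% of all genes with a lower effect, and none a called larger one. Under the alternatives the count was 9 to 16. The median effect was 1.46 in grafts and 4.73 in ear, with a median difference of -3.45. The summed level of the list was 11260 to 17330 CPM in E7 grafts, 4149 to 6249 CPM in C57 grafts, 3147 to 6606 CPM in E7 ear and 505 to 591 CPM in C57 ear, so that C57 grafts overlapped E7 ear. By the middle library of each group, E7 minus C57 of this sum was larger in grafts than in ear. Counts of Sprr, Stfa, Cstdc and Lce genes are uncertain, because members of these families are near-identical and reads can be split among them.

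Sprr2h, a small proline-rich protein of the cornified envelope, was at 307, 241 and 208 CPM in E7 grafts, 54.7, 41.1 and 46.5 CPM in C57 grafts, 175, 173 and 170 CPM in E7 ear, and 1.58, 1.59 and 1.65 CPM in C57 ear. E7 grafts were highest and C57 ear lowest, with no overlap between groups. The Sprr2h effect was 2.41 ± 0.13 in grafts and 6.74 ± 0.19 in ear (difference -4.33 ± 0.23, edgeR adjusted p = 3.66e-06). Sprr1b, of the same family, had a difference of -4.64 ± 0.45. These are differences of log2 ratios. By mean CPM, E7 minus C57 of both Sprr2h and Sprr1b was larger in grafts than in ear. Gjb2, the gap junction gene of connexin 26, averaged 490 ± 163 CPM in E7 grafts, 408 ± 44.6 CPM in C57 grafts, 108 ± 27.6 CPM in E7 ear and 11.3 ± 0.589 CPM in C57 ear, with a called effect in ear (3.25 ± 0.28) and none called in grafts (0.27 ± 0.23). The stress keratin Krt16 had effects of 1.98 ± 0.38 in grafts and 5.74 ± 0.46 in ear (difference -3.76 ± 0.54, edgeR adjusted p = 0.00239).

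Areg, the epidermal growth factor receptor ligand amphiregulin, was at 13.4, 22.0 and 26.3 CPM in E7 grafts, 6.70, 10.7 and 9.96 CPM in C57 grafts, 12.1, 12.8 and 15.2 CPM in E7 ear, and 0, 0 and 0.412 CPM in C57 ear. Grafts of both genotypes and E7 ear stood far above C57 ear, and the difference was -5.17 ± 0.70 (edgeR adjusted p = 0.000909), with 6 counts over C57 ear. Crnn, the S100 fused-type protein cornulin, was at 141, 68.2 and 107 CPM in E7 grafts, 167, 173 and 93.9 CPM in C57 grafts, 11.0, 16.3 and 11.9 CPM in E7 ear, and 0.332, 0.152 and 0.481 CPM in C57 ear. The grafts overlapped each other and E7 had no called effect there (-0.46 ± 0.29), against 5.27 ± 0.64 in ear (difference -5.73 ± 0.72, edgeR adjusted p = 0.00113).

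Slpi, a secreted leukocyte protease inhibitor, was at 26.6, 32.7 and 14.8 CPM in E7 grafts, 30.3, 7.18 and 46.9 CPM in C57 grafts, 54.1, 60.3 and 74.95 CPM in E7 ear, and 1.74, 2.50 and 2.34 CPM in C57 ear. The C57 grafts spread most, and the grafts of both genotypes overlapped. The Slpi effect was -0.21 ± 0.52 in grafts and 4.83 ± 0.64 in ear (difference -5.04 ± 0.84, edgeR adjusted p = 0.00567). Sprr2a2 was at 26.1, 40.9 and 85.8 CPM in E7 grafts, 27.4, 8.88 and 15.9 CPM in C57 grafts, 89.1, 49.4 and 122 CPM in E7 ear, and 1.16, 0.683 and 0.962 CPM in C57 ear, with a difference of -4.97 ± 0.96 (edgeR adjusted p = 0.011).

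The cystatin genes Stfa1, Cstdc5 and Cstdc6, whose proteins inhibit cysteine proteases, went together and were highest in E7 grafts. Cstdc5 was at 945, 1481 and 624 CPM in E7 grafts, 413, 265 and 361 CPM in C57 grafts, 218, 116 and 278 CPM in E7 ear, and 1.91, 1.21 and 2.68 CPM in C57 ear (difference -5.14 ± 0.67, edgeR adjusted p = 0.0016). Stfa1 was at 217, 321 and 135 CPM in E7 grafts, 109, 61.6 and 74.5 CPM in C57 grafts, 53.7, 33.0 and 75.6 CPM in E7 ear, and 0.581, 0.228 and 0.893 CPM in C57 ear (-5.06 ± 0.83, edgeR adjusted p = 0.00539). Cstdc6 was at 163, 234 and 93.9 CPM in E7 grafts, 67.1, 41.4 and 56.99 CPM in C57 grafts, 19.8, 12.1 and 27.98 CPM in E7 ear, and 0.0830, 0.0759 and 0.206 CPM in C57 ear (-5.61 ± 1.06, edgeR adjusted p = 0.00982). Cstdc6 had 5 counts over C57 ear, and its difference missed the threshold under limma voom. For all of these cystatin genes the lower effect in grafts is one of log2 ratios. By mean CPM, E7 minus C57 was larger in grafts than in ear.

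Of 37 cornified envelope genes, 15 had a lower effect in grafts (6.8% of all genes did) and none a called higher one, with a median effect of 0.60 in grafts and 1.31 in ear. Without replicate 2 of the E7 grafts the count was 23, and 22 with the scaling library held. Filaggrin (Flg) had an effect of 0.84 ± 0.19 in grafts and 3.25 ± 0.21 in ear (difference -2.41 ± 0.27, edgeR adjusted p = 0.00029). Of the list, 3 genes were lower in E7 grafts than in C57 grafts, Krt2, Flg2 and Lce1m, against 17.3% of all genes. Krt2, a keratin of the upper spinous layer, had an effect of -2.28 ± 0.34 in grafts (edgeR adjusted p = 0.000646) and no called effect in ear (0.37 ± 0.32).

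Keratins and adhesion genes of the living layers were split. Of 18 basal and suprabasal keratinocyte identity genes, 7 had a higher effect in grafts (7.35% of all genes did) and 1, Krt1, a lower one. Their median difference was 0.13, and -0.03 without C57 graft replicate 2. The count of 7 was 5 to 7 when 1 library was left out with the scaling library held, 4 to 7 where it could change, and 3 in the fit of all 24 libraries. Krt1, the suprabasal keratin, was at 27090, 40030 and 21250 CPM in E7 grafts, 11160, 10790 and 9880 CPM in C57 grafts, 10810, 8377 and 11990 CPM in E7 ear, and 736, 918 and 912 CPM in C57 ear. C57 grafts stood at the level of E7 ear, and the effect was 1.47 ± 0.21 in grafts and 3.60 ± 0.23 in ear (difference -2.13 ± 0.29, edgeR adjusted p = 0.000672). By mean CPM, E7 minus C57 of Krt1 was larger in grafts than in ear.

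The 7 with a higher effect in grafts serve the basal layer and its anchorage to the basement membrane: Krt15, Dst, Col17a1, Itgb4, Itga3, Itga6 and Lamb3. Krt15, a basal keratin of resting epidermis and the hair bulge, was at 377, 448 and 332 CPM in E7 grafts, 552, 620 and 497 CPM in C57 grafts, 439, 422 and 336 CPM in E7 ear, and 1689, 1889 and 1949 CPM in C57 ear. C57 ear stood alone above all others. The Krt15 effect was -0.53 ± 0.13 in grafts and -2.21 ± 0.13 in ear (difference 1.68 ± 0.18, edgeR adjusted p = 0.000185). Dst, which encodes the hemidesmosomal plakin BPAG1, had effects of -0.45 ± 0.08 in grafts and -1.18 ± 0.08 in ear. Itgb4, the hemidesmosomal integrin, had no called effect in grafts (-0.09 ± 0.09) and a called one in ear (-0.74 ± 0.09). By contrast the pan-basal keratins Krt5 and Krt14 had no called difference (0.21 ± 0.15 and 0.04 ± 0.22).

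Inflammatory genes of the IL-17 and IL-1 axis also had smaller effects in grafts. Of 15 tested, 9 had a lower effect in grafts, against 6.8% of all genes, and none a called higher one, with a median effect of 0.65 in grafts and 3.44 in ear. The count was 5 without replicate 3 of the E7 ear, and 4 with the scaling library held. Csf3, Il6, Il17a, Il17f and Il22 were too low to be tested. Tnf was at 3.90, 4.67 and 6.00 CPM in E7 grafts, 4.75, 3.52 and 7.64 CPM in C57 grafts, 19.3, 19.0 and 21.7 CPM in E7 ear, and 2.07, 2.35 and 3.92 CPM in C57 ear. E7 ear stood alone, and the grafts of both genotypes overlapped. The Tnf effect was -0.13 ± 0.29 in grafts and 2.83 ± 0.26 in ear (difference -2.95 ± 0.39, edgeR adjusted p = 0.000565).

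Ccl20, a chemokine of IL-17-exposed keratinocytes that attracts CCR6-bearing cells, was at 6.72, 12.1 and 22.5 CPM in E7 grafts, 2.56, 1.69 and 2.20 CPM in C57 grafts, 90.0, 107 and 114 CPM in E7 ear, and 0.415, 0.379 and 1.37 CPM in C57 ear. Here the E7 arm was lower in grafts than in ear, and E7 grafts remained above C57 grafts (2.69 ± 0.49, edgeR adjusted p = 0.00259). The difference was -4.40 ± 0.83. Cxcl2, a neutrophil chemoattractant, had the lowest difference of all named genes (-6.71 ± 1.25, edgeR adjusted p = 0.00793). It was at 1.72, 1.95 and 2.60 CPM in E7 grafts, 3.04, 2.96 and 18.3 CPM in C57 grafts, 9.81, 4.22 and 7.23 CPM in E7 ear, and 0.166, 0.0759 and 0.481 CPM in C57 ear. Replicate 3 of the C57 grafts was far above the other C57 grafts, and it was also highest for Il1b (28.5 CPM, against 5.601 and 5.212 in the other C57 grafts). Without that library the difference for Cxcl2 was -5.26 (edgeR adjusted p = 0.00061).

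Of 8 neutrophil genes tested, 3 had a lower effect in grafts (Fpr1, Cxcr2 and Csf3r), against 6.8% of all genes, with a median effect of 0.42 in grafts and 3.81 in ear. The other 6 genes of that list were too low to be tested, and Fpr1 had 0 counts in C57 ear. Of 16 immune regulatory genes, 5 had a lower effect in grafts and 1 a higher one, against 6.8% and 7.35% of all genes. The 5 were Il10, Foxp3, Tigit, Icos and Ctla4, and the 1 was Nt5e. Foxp3, the factor of regulatory T cells, was at 3.90, 4.67 and 6.00 CPM in E7 grafts, 4.26, 3.24 and 3.59 CPM in C57 grafts, 7.85, 7.48 and 8.71 CPM in E7 ear, and 0.581, 1.67 and 1.24 CPM in C57 ear (difference -2.35 ± 0.38, edgeR adjusted p = 0.00182). E7 skin held more Foxp3 in ear, and the grafts overlapped. In bulk skin, fewer cells of a type and less RNA per cell cannot be told apart, here and for the cell type lists that follow. Of 20 macrophage and monocyte genes, 16 were lower in E7 grafts than in C57 grafts, against 17.3% of all genes, and 4 were lower in E7 ear than in C57 ear, against 32.8% of all. A lower effect in grafts was called for 4 of the 20 (Itgam, C1qa, Ccr2 and Ms4a7), against 6.8% of all genes. Under the alternatives it was called for 1 to 12 of them. The summed macrophage level was 835 to 1361 CPM in E7 grafts, 1846 to 3388 CPM in C57 grafts, 617 to 878 CPM in E7 ear and 846 to 1001 CPM in C57 ear, so that C57 grafts were highest.

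The interferon response had a median difference near 0. Of 35 genes tested, 33 were higher in E7 skin in grafts and 30 in ear, against 19.7% and 27.5% of all genes, and the median effect was 1.56 in grafts and 1.48 in ear. The median difference of 0.02 changed sign under 13 of the 21 alternatives, within -0.20 to 0.10. A called difference was found for 6 of the 35, against 14.2% of all genes. It was lower in grafts for Oas3, Oas1a, Oas1g and Oasl2 and higher for Eif2ak2 and Ifi35. Oligoadenylate synthetases are sensors of double-stranded RNA, and Oas1a and Oas1g are near-identical neighbours whose counts are uncertain. Lower calls numbered 8 without C57 graft replicate 1 and 7 without E7 graft replicate 3, and 7 and 6 in these fits with the scaling library held. They numbered 2 without C57 ear replicate 2 with the scaling library held. Higher calls numbered 0 without C57 graft replicate 1, 1 without any of the 3 C57 ear libraries, C57 graft replicate 2, E7 ear replicate 3 or E7 graft replicate 3, and 1 in the fit of all 24 libraries. With the scaling library held they were 2 or 3 in each fit without 1 library. The replicate block gave 5 higher and 7 lower calls.

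The promoter window of Ifih1, which encodes the RNA sensor MDA5, is shown for the interferon response element (AAANNGAAA, both strands, in capitals), which here lies after the gene start (chr2:62646206-62646505, minus strand, RefSeq GRCm38.p6).
Ifih1: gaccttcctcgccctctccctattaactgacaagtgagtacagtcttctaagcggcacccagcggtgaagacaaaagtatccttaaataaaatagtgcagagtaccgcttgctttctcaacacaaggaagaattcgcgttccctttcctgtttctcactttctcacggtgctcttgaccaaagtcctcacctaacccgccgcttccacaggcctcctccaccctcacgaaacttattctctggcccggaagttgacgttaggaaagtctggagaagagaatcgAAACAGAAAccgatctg
The element was found in the windows of 17 of 24 interferon response genes (70.8%) and 10 of 12 interferon-gamma GTPase and chemokine genes (83.3%), against 12.1% of all 27025 and 1 of 27 mitosis genes (3.7%). Its share among the 12319 tested genes with a window was 9.77%. Ifih1 was at 113, 100 and 133 CPM in E7 grafts, 25.2, 27.6 and 36.7 CPM in C57 grafts, 78.6, 83.1 and 79.6 CPM in E7 ear, and 29.4, 24.2 and 24.1 CPM in C57 ear. E7 libraries stood above C57 libraries in both tissues, by 1.95 ± 0.14 in grafts and 1.64 ± 0.14 in ear, with no called difference (0.31 ± 0.19, edgeR adjusted p = 0.31).

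Oas3 showed the smaller graft effect, at 61.2, 61.6 and 100 CPM in E7 grafts, 7.06, 15.4 and 17.6 CPM in C57 grafts, 36.7, 34.9 and 29.8 CPM in E7 ear, and 1.82, 1.82 and 0.962 CPM in C57 ear. Grafts of each genotype were above ear of that genotype. The difference was -1.99 ± 0.52 (edgeR adjusted p = 0.0326). It is one of log2 ratios, and by mean CPM, E7 minus C57 of Oas3 was larger in grafts than in ear. Eif2ak2, the RNA-dependent kinase PKR, had the larger graft effect, of 1.47 ± 0.11 in grafts and 0.81 ± 0.11 in ear (difference 0.66 ± 0.16, edgeR adjusted p = 0.0168). Of 19 interferon-gamma GTPase and chemokine genes, 17 were higher in E7 grafts and 14 in E7 ear, against 19.7% and 27.5% of all genes. A called difference was found for 1 of the 19, against 14.2% of all genes. Cxcl9, the ligand of CXCR3, had effects of 2.68 ± 0.45 in grafts and 2.69 ± 0.52 in ear.

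**Figure D3:**
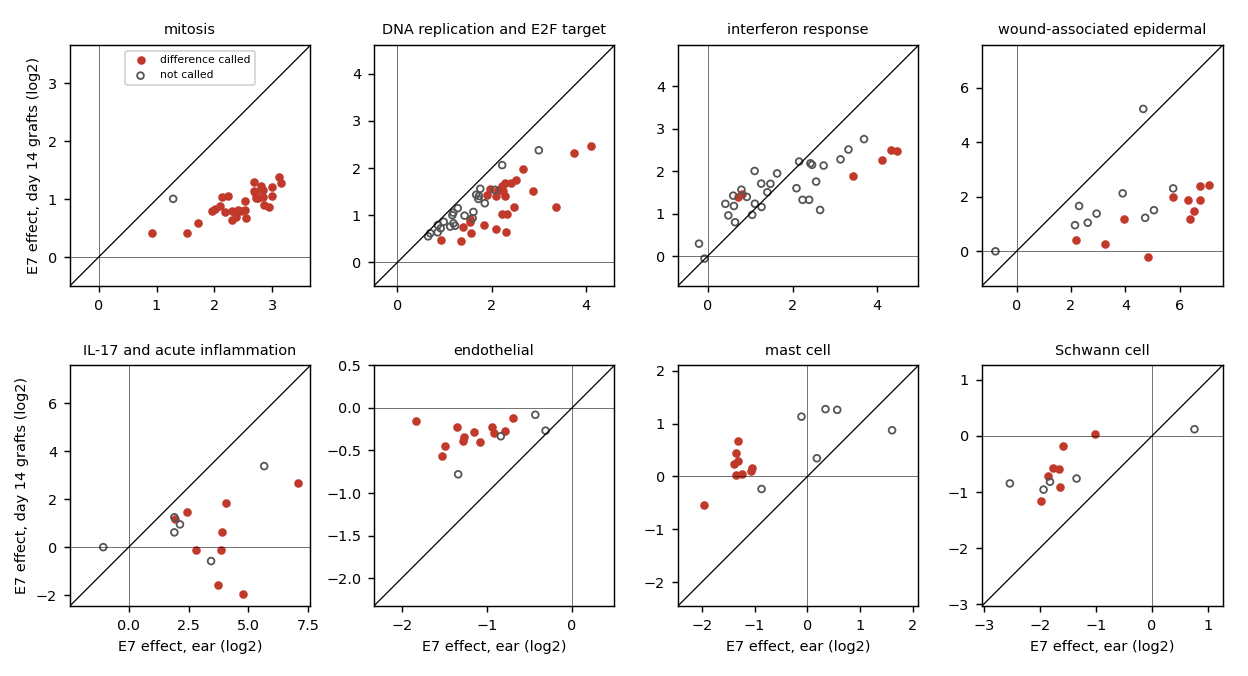
Effect of E7 in day 14 grafts (vertical axis) against ear (horizontal axis), log2, for the members of 8 gene lists, with the line of equal effects; filled points have a called difference. Mitosis genes lie below the line with 32 of 33 called, interferon response genes lie on both sides of it with 6 of 35 called, and endothelial genes lie above it with 12 of 16 called.

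Vessel, mast cell and nerve sheath genes had a higher effect in grafts as lists. Most of their genes were lower in E7 ear than in C57 ear, and fewer were lower in E7 grafts than in C57 grafts. Of 16 endothelial genes, all 16 were lower in E7 ear, against 32.8% of all genes, 7 were lower in E7 grafts, against 17.3%, and 12 had a higher effect in grafts, against 7.35%. The median effect was -0.29 in grafts and -1.11 in ear. With the scaling library held, the count of 12 was 7 without C57 ear replicate 3 or E7 ear replicate 1 and 6 without E7 ear replicate 3. Where the scaling library could change it was 5 to 14 without 1 library, and in the fit of all 24 libraries it was 6.

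Erg, an endothelial transcription factor, was at 9.37, 13.1 and 13.9 CPM in E7 grafts, 12.2, 12.0 and 16.6 CPM in C57 grafts, 3.83, 5.95 and 4.91 CPM in E7 ear, and 15.1, 20.3 and 16.8 CPM in C57 ear. E7 ear was lowest, and grafts of both genotypes overlapped. The Erg effect was -0.15 ± 0.20 in grafts and -1.83 ± 0.20 in ear (difference 1.68 ± 0.28, edgeR adjusted p = 0.00234). The tight junction gene Cldn5 had a difference of 1.12 ± 0.18, and the adhesion molecule gene Esam one of 0.92 ± 0.14. Unlike the epidermal lists, the endothelial genes moved more in the E7 arm: the median difference of graft over ear was 1.37 in E7 skin and 0.72 in C57 skin.

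Of 15 mast cell genes, 9 had a higher effect in grafts, against 7.35% of all genes, with a median effect of 0.29 in grafts and -1.08 in ear. Under the alternatives the count was 6 to 10. Mcpt4, a chymase of connective tissue mast cells, was at 43.1, 62.8 and 57.3 CPM in E7 grafts, 41.1, 38.9 and 59.2 CPM in C57 grafts, 31.7, 45.5 and 41.1 CPM in E7 ear, and 103, 105 and 101 CPM in C57 ear. C57 ear stood above all others, which overlapped. The Mcpt4 effect was 0.23 ± 0.18 in grafts and -1.38 ± 0.18 in ear (difference 1.62 ± 0.26, edgeR adjusted p = 0.00259). The serotonin transporter gene Slc6a4 and the transcription factor gene Gata2 had differences of 1.62 ± 0.27 and 1.22 ± 0.22.

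Ms4a2, the beta chain of the high-affinity IgE receptor, was at 1.56, 1.302 and 1.58 CPM in E7 grafts, 0.609, 1.27 and 0.927 CPM in C57 grafts, 1.495, 3.07 and 2.41 CPM in E7 ear, and 6.14, 5.46 and 5.77 CPM in C57 ear. C57 ear again stood alone (difference 1.99 ± 0.43, edgeR adjusted p = 0.0104). The call was lost in the fit of all 24 libraries.

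Of 12 Schwann cell genes, 11 were lower in E7 ear, against 32.8% of all genes, and 7 had a higher effect in grafts, against 7.35%, with a median effect of -0.74 in grafts and -1.70 in ear. With the scaling library held, that count was 4 without C57 ear replicate 2 or 3 or E7 ear replicate 1 or 3, and 3 without E7 graft replicate 3. Where the scaling library could change it was 3 to 7 without 1 library, and it was 3 in the fit of all 24 libraries. Prx, which encodes periaxin of myelinating Schwann cells, was at 20.5, 15.8 and 17.1 CPM in E7 grafts, 19.9, 21.4 and 18.9 CPM in C57 grafts, 25.1, 23.8 and 20.9 CPM in E7 ear, and 69.3, 64.4 and 75.2 CPM in C57 ear. All groups but C57 ear lay close together, and the difference was 1.40 ± 0.15 (edgeR adjusted p = 0.000185). Drp2, a partner of periaxin, had a difference of 1.14 ± 0.15, and the myelin gene Mbp one of 1.06 ± 0.14. The summed level of the list was 204 to 312 CPM in E7 grafts, 324 to 375 CPM in C57 grafts, 425 to 432 CPM in E7 ear and 1028 to 1157 CPM in C57 ear.

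**Figure D4:**
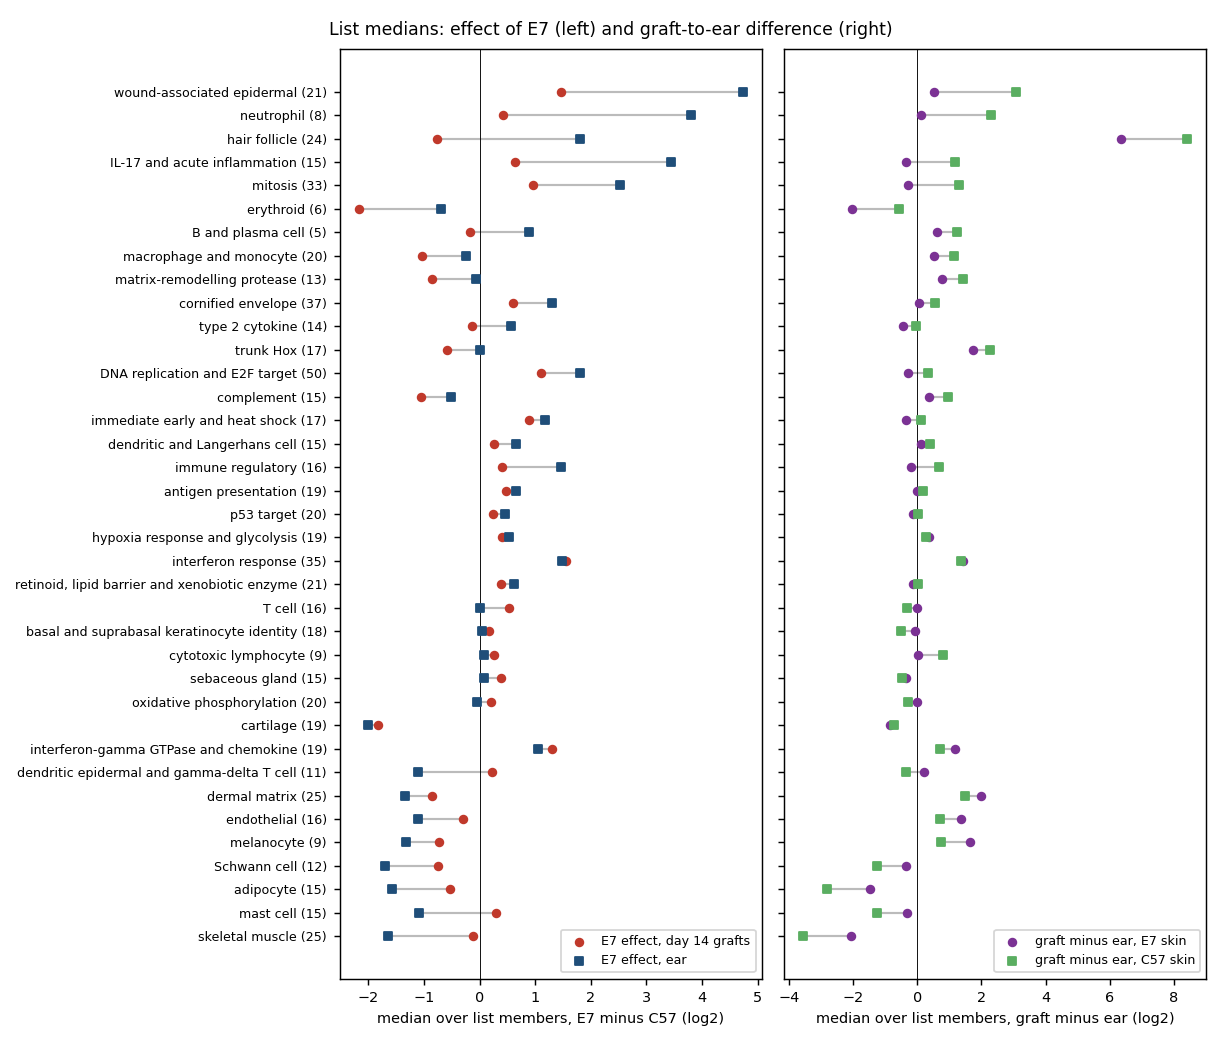
Left, median log2 effect of E7 over the tested members of each of 37 gene lists (number tested in brackets) in day 14 grafts (red circles) and ear (blue squares). Right, median log2 difference of graft over ear in E7 skin (purple circles) and C57 skin (green squares), which includes the flow cell. Lists run from the lowest median difference at the top (wound-associated epidermal, -3.45) to the highest at the bottom (skeletal muscle, 1.56).

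Other genes with high differences came from no single list. Btc, the epidermal growth factor receptor ligand betacellulin, went against Areg of the same ligand family. It was at 9.69, 11.7 and 10.9 CPM in E7 grafts, 9.50, 10.3 and 8.22 CPM in C57 grafts, 4.20, 6.43 and 4.26 CPM in E7 ear, and 21.6, 27.3 and 25.1 CPM in C57 ear. E7 ear was lowest and C57 ear highest, with the grafts between them. The Btc effect was 0.22 ± 0.17 in grafts and -2.31 ± 0.16 in ear (difference 2.53 ± 0.24, edgeR adjusted p = 7.85e-05).

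Gap43, a growth-associated protein of regenerating axons and Schwann cells, was at 6.56, 7.60 and 7.25 CPM in E7 grafts, 13.76, 11.3 and 7.99 CPM in C57 grafts, 0.560, 0.959 and 0.648 CPM in E7 ear, and 4.89, 3.49 and 5.08 CPM in C57 ear. Grafts were above ear in both genotypes, and E7 skin was lower than C57 skin in each tissue. The Gap43 effect was -0.62 ± 0.21 in grafts and -2.62 ± 0.30 in ear (difference 2.00 ± 0.38, edgeR adjusted p = 0.00494). Kera, the proteoglycan keratocan, was at 22.6, 31.0 and 16.3 CPM in E7 grafts, 20.4, 13.4 and 21.2 CPM in C57 grafts, 1.21, 1.73 and 1.95 CPM in E7 ear, and 5.06, 3.87 and 5.63 CPM in C57 ear. Its grafts overlapped and its ear groups did not (difference 1.91 ± 0.41, edgeR adjusted p = 0.0104).

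Rec8, a cohesin subunit gene known from meiosis, was at 5.78, 4.02 and 3.06 CPM in E7 grafts, 3.77, 6.90 and 4.05 CPM in C57 grafts, 2.71, 1.73 and 2.59 CPM in E7 ear, and 11.2, 10.2 and 9.89 CPM in C57 ear (difference 1.94 ± 0.38, edgeR adjusted p = 0.00626). Slc7a10, an amino acid transporter gene of fat and brain, was at 2.19, 1.63 and 3.06 CPM in E7 grafts, 1.46, 3.24 and 3.13 CPM in C57 grafts, 2.62, 2.21 and 1.85 CPM in E7 ear, and 9.12, 9.79 and 9.21 CPM in C57 ear (1.89 ± 0.40, edgeR adjusted p = 0.0094). Both were high in C57 ear alone. The call for Slc7a10 was lost in the fit of all 24 libraries. Atcay, which encodes the neuronal protein caytaxin, was at 0.781, 0.760 and 0.679 CPM in E7 grafts, 0, 0.423 and 0.463 CPM in C57 grafts, 1.495, 1.25 and 1.39 CPM in E7 ear, and 6.22, 3.34 and 5.57 CPM in C57 ear. Its difference of 3.16 ± 0.73 (edgeR adjusted p = 0.014) was the highest named, and rests on 18 counts over the E7 grafts and 7 over the C57 grafts.

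Opposite called effects of E7 were found for 68 genes, 0.416% of those tested: 45 were higher in E7 ear and lower in E7 grafts, and 23 the other way round. Prnd, the prion-like protein doppel, was at 18.1, 21.4 and 17.1 CPM in E7 grafts, 22.2, 23.2 and 34.9 CPM in C57 grafts, 10.0, 13.3 and 15.5 CPM in E7 ear, and 2.90, 2.65 and 2.89 CPM in C57 ear. C57 was the higher genotype in grafts and the lower in ear (effects -0.50 ± 0.19 and 2.19 ± 0.22, difference -2.70 ± 0.29, edgeR adjusted p = 0.000182). Cxcr4, the receptor of CXCL12 on leukocytes and growing vessels, was at 10.8, 15.3 and 12.4 CPM in E7 grafts, 22.8, 25.9 and 24.1 CPM in C57 grafts, 7.47, 7.48 and 7.88 CPM in E7 ear, and 4.73, 4.48 and 4.19 CPM in C57 ear. Its groups did not overlap, and the effect was -0.91 ± 0.13 in grafts and 0.77 ± 0.14 in ear (difference -1.68 ± 0.19, edgeR adjusted p = 0.000222).

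The transcription factor gene Myb was at 12.0, 9.66 and 10.2 CPM in E7 grafts, 13.9, 14.8 and 13.78 CPM in C57 grafts, 9.34, 12.8 and 11.7 CPM in E7 ear, and 5.31, 5.39 and 5.70 CPM in C57 ear (effects -0.42 ± 0.14 in grafts and 1.04 ± 0.14 in ear, difference -1.46 ± 0.19, edgeR adjusted p = 0.000549). Txnrd1, the cytosolic thioredoxin reductase, was at 185, 170 and 185 CPM in E7 grafts, 213, 204 and 198 CPM in C57 grafts, 229, 264 and 241 CPM in E7 ear, and 167, 160 and 156 CPM in C57 ear (effects -0.19 ± 0.06 in grafts and 0.60 ± 0.06 in ear, difference -0.79 ± 0.09, edgeR adjusted p = 0.00025). For both the crossing came without overlap between genotypes within a tissue, though the graft effect of Txnrd1 was small.

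Of the 23 genes lower in E7 ear and higher in E7 grafts, the 4 with the smallest adjusted p follow. Btbd11, a BTB domain protein with ankyrin repeats, was at 39.4, 37.9 and 38.5 CPM in E7 grafts, 30.6, 31.8 and 29.4 CPM in C57 grafts, 35.9, 34.8 and 35.1 CPM in E7 ear, and 46.9, 45.8 and 47.2 CPM in C57 ear (difference 0.74 ± 0.09, edgeR adjusted p = 0.000269). Prxl2a, a peroxiredoxin-like protein, was at 101, 92.9 and 78.8 CPM in E7 grafts, 60.9, 57.2 and 52.1 CPM in C57 grafts, 84.2, 88.6 and 79.9 CPM in E7 ear, and 96.6, 116 and 102 CPM in C57 ear (0.99 ± 0.14, edgeR adjusted p = 0.000677). In both genes the 2 genotypes did not overlap within either tissue. The call for Prxl2a was lost in the fit of all 24 libraries. Tspo, the mitochondrial translocator protein, was at 87.9, 94.2 and 99.3 CPM in E7 grafts, 71.6, 71.7 and 73.1 CPM in C57 grafts, 67.7, 65.0 and 65.8 CPM in E7 ear, and 74.4, 76.5 and 74.7 CPM in C57 ear (0.56 ± 0.08, edgeR adjusted p = 0.000677). Idh3a, a subunit of the citric acid cycle isocitrate dehydrogenase, was at 92.0, 86.9 and 82.2 CPM in E7 grafts, 75.2, 80.7 and 72.0 CPM in C57 grafts, 84.4, 87.3 and 87.5 CPM in E7 ear, and 115, 106 and 120 CPM in C57 ear (0.59 ± 0.09, edgeR adjusted p = 0.00149). The oxidative phosphorylation list, of 20 genes, had a median effect of 0.20 in grafts and -0.05 in ear, and 6 members had a higher effect in grafts (7.35% of all genes did), or 3 with an ear library as the scaling standard. With a graft held as that standard, the count was 3 without C57 ear replicate 1 or 3, E7 ear replicate 2 or 3, or E7 graft replicate 1. It was 2 to 5 without 1 library where the standard could change, and 3 in the fit of all 24 libraries.

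Of 25 skeletal muscle genes, 20 were lower in E7 ear, against 32.8% of all genes, and none was called in grafts or for the difference, with a median effect of -0.11 in grafts and -1.64 in ear. At an unadjusted p below 0.05 the edgeR difference passed for 6 of them, all higher, and DESeq2 called 3 (Actn3, Eno3 and Mybpc2). In edgeR 4 were called higher without C57 graft replicate 2 and 5 without E7 graft replicate 2, and limma voom called 1. Their summed level was 295 to 1775 CPM in E7 grafts, 680 to 2220 CPM in C57 grafts, 3004 to 4434 CPM in E7 ear and 8765 to 15650 CPM in C57 ear, a spread of several fold within the graft groups. Of 25 dermal matrix genes, 18 were lower in E7 grafts and 22 in E7 ear, against 17.3% and 32.8% of all genes, and none had a called difference in edgeR (5 passed at an unadjusted p below 0.05, and DESeq2 called 1, Sparc). In edgeR 4 were called higher without C57 graft replicate 3, 3 without E7 ear replicate 2 and 1 without E7 graft replicate 1 or with the replicate block, and 1 was called lower without E7 graft replicate 2. The dermal median effect was -0.85 in grafts and -1.34 in ear. Of 19 cartilage genes, 12 were lower in E7 grafts and 17 in E7 ear, against 17.3% and 32.8% of all genes, with medians of -1.83 and -2. None had a called difference in edgeR (1 passed at an unadjusted p below 0.05, and DESeq2 called 0). Without E7 ear replicate 2, edgeR called 1 cartilage gene higher. Hair follicle genes had a median difference of -2.64 with 2 of 24 called lower, Krt71 and Krt25, against 6.8% of all genes. Lower calls numbered 0 without C57 ear replicate 2 or 3, C57 graft replicate 1 or 2, E7 ear replicate 3 or E7 graft replicate 3, and under limma voom. They numbered 6, with 2 higher calls, without E7 graft replicate 2, and 9 in DESeq2. Krt71, a keratin of the inner root sheath, was at 2496, 640 and 1784 CPM in E7 grafts, 2933, 3512 and 1954 CPM in C57 grafts, 2.99, 8.25 and 12.4 CPM in E7 ear, and 1.16, 0.228 and 0.275 CPM in C57 ear. Its grafts stood far above its ear libraries in both genotypes.

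Grafts of the same donor and recipient genotypes at 28 days give further values of the E7 effect for named genes, from a fit of all 24 libraries. The later effect was 1.71 ± 0.17 for Mki67, 1.74 ± 0.13 for Cdk1 and 2.21 ± 0.21 for E2f7. Each of these 3 lies between the day 14 graft and the ear value, while the later effect for Cdkn2a was 1.02 ± 0.35, against 1.35 at day 14. The wound genes Sprr2h and Sprr1b stood at 4.02 ± 0.23 and 5.19 ± 0.42, and Gjb2 at 1.00 ± 0.29. Slpi was at 0.15 ± 0.59 and Crnn at -0.86 ± 0.47. For Btc the later effect was -2.10 ± 0.18, close to its ear value of -2.31. Erg was at -0.90 ± 0.20, Prx at -1.23 ± 0.20 and Mcpt4 at -0.56 ± 0.26, and Tnf at -0.04 ± 0.30. Of the named genes with opposite effects, Prxl2a (0.92 ± 0.21) and Tspo (0.50 ± 0.09) were called higher in E7 grafts at 28 days. No effect was called then for Cxcr4 (-0.21 ± 0.21), Prnd (-0.26 ± 0.19), Myb (0.34 ± 0.16) or Txnrd1 (0.07 ± 0.06). The same held for Btbd11 (0.05 ± 0.09) and Idh3a (0.15 ± 0.07). The change between the days was not tested here.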

How the data were processed

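Read counts per Entrez gene, whole numbers without normalization, were deposited by the authors for each library. Per the labels' protocols, frozen skin gave RNA by Trizol and RNeasy columns, and libraries were made with the TruSeq RNA v2 kit. Per the submitters' processing notes, bcl2fastq 1.8.4, FastQC and Trimmomatic were used and the build was mm10. For aligner, counting tool, annotation and strand setting, nothing is given in the sources used here. Overlapping and near-identical genes can share reads. Of 27180 gene identifiers, 25275 matched RefSeq, whose symbols are used, since 602 symbols differed between ear and graft tables.

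The 12 libraries were fitted together in edgeR 4.0.16 (R 4.3.3) with TMM scaling, a filter at a minimum count of 10 (total 15), a robust quasi-likelihood F test and Benjamini-Hochberg adjustment over the 16331 genes tested, with a threshold of 0.05. SE is the log2 value divided by the square root of F. CPM uses TMM-scaled library sizes. Replicate libraries differed by more than sampling noise (chi-square per degree of freedom 4.77 to 27.7). Totals of 6726995 to 13814448 put 3 counts at 0.217 to 0.446 CPM.

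Named genes were the transgene, Mki67 and Cdkn2a; the 8 highest and 8 lowest differences among genes called here and in each fit without 1 of the 12 libraries, with a mean of at least 5 CPM in the highest group; the 4 genes of each sign with opposite effects and the smallest adjusted p; and up to 3 members of the 8 lists with the largest share called. Other genes named (such as Mcm4, Prim1, Ttk, Krt16, Flg, Krt2, Itgb4, Il1b, Foxp3, Oas3, Eif2ak2, Cxcl9, Ifih1 and Krt71) were chosen after their values were seen. A gene that the rule selects is not reported here. The comparison and the gene lists were chosen with earlier results of these data known. Alternatives were DESeq2 1.42.0, limma 3.58.1 voom, other scalings and filters, a replicate block, all 24 libraries and leaving out each library, also with a graft held as the TMM standard. The code was tested on simulated counts.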

Additional observations from a re-analysis of the deposited data

Results flagged for a closer look

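The effect of E7 differed between day 14 grafts and ear, by the edgeR test of the difference itself, for 2311 genes, and 68 of these had called effects of opposite direction. The log2 differences of the named genes, graft effect minus ear effect, are given by group. The 8 lowest differences were Areg (-5.17), Crnn (-5.73), Cstdc5 (-5.14), Cstdc6 (-5.61), Cxcl2 (-6.71), Slpi (-5.04), Sprr2a2 (-4.97) and Stfa1 (-5.06). The highest differences were Atcay (3.16), Btc (2.53), Gap43 (2.00), Kera (1.91), Ms4a2 (1.99), Rec8 (1.94) and Slc7a10 (1.89). Among opposite effects that were higher in E7 grafts, the values were Btbd11 (0.74), Idh3a (0.59), Prxl2a (0.99) and Tspo (0.56). Among opposite effects that were lower in E7 grafts, the values were Cxcr4 (-1.68), Myb (-1.46), Prnd (-2.70) and Txnrd1 (-0.79). Among cell cycle genes, the values were Mki67 (-1.79), Cdkn2a (-4.73), Cdk1 (-1.74), Cenpa (-1.65), Cenpe (-1.88), E2f2 (-1.39), E2f7 (-2.18) and Rrm2 (-1.42). Among wound and inflammation genes, the values were Gjb2 (-2.98), Sprr1b (-4.64), Sprr2h (-4.33), Ccl20 (-4.40) and Tnf (-2.95). Among keratinocyte genes, the values were Krt1 (-2.13), Krt15 (1.68) and Dst (0.73). Among vessel, mast cell and nerve sheath genes, the values were Cldn5 (1.12), Erg (1.68), Esam (0.92), Gata2 (1.22), Mcpt4 (1.62), Slc6a4 (1.62), Drp2 (1.14), Mbp (1.06) and Prx (1.40). Fitted values of Cdkn2a, Areg, Crnn, Cstdc6, Cxcl2 and Stfa1 rest on 4 to 23 counts over the C57 ear group. No cause of any of these differences was tested.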

How the results depend on the processing

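The count of called differences, 2311, was 1572 to 2462 when 1 library was left out in turn, 1472 to 2370 in the same fits with a graft held as the TMM standard (added after seeing the data), and 2098 to 2626 over the other fits. With a log2 size of at least 1 required as well, 908 differences remained (389 higher, 519 lower), with 3526 genes for the ear effect and 991 for the graft effect. The 1200 differences called higher were 504 to 1203 without 1 library, 697 to 1239 with the standard held (781 and 799 without C57 ear replicates 1 and 3) and 668 in the fit of all 24 libraries; the 1111 called lower were 908 to 1514 without 1 library and 775 to 1131 with the standard held, where 47.3% to 53.5% of calls were higher. Higher calls made up 51.9% of calls, against 34.6% with an ear library as the TMM standard, 41.6% with RLE scaling, 40.8% in DESeq2, 57.6% with upper quartile scaling and 31.8% with all 24 libraries. The cause of these shifts was not tested. In all 12 leave-one-out fits 1187 genes were called (417 higher, 770 lower). Of 1008 values of the named genes, 1004 kept direction and call, 0 reversed and 4 lost the call: Ms4a2 (adjusted p = 0.0657), Slc7a10 (0.0991) and Prxl2a (0.0522) with all 24 libraries in edgeR, and Cstdc6 with limma voom (0.0795). For the genes chosen as highest and lowest, the call in the 12 fits without 1 library was fixed by the rule that chose them. Of 777 list medians, 765 moved by less than 1 SD between replicates. Of the 37 lists, 9 had a median difference of the other sign under at least 1 alternative.

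The replicate numbers of the grafts pair no samples by the labels, and deviations of same-numbered grafts correlated at 0.0698, -0.337 and 0.0298. With the replicate block 2546 differences were called. Genes of few counts in C57 ear limit the size of the lowest differences, and their direction is that of log2 ratios. By mean CPM, E7 minus C57 was larger in grafts than in ear for Cstdc5, Cstdc6, Stfa1, Sprr1b, Sprr2h, Krt1 and Oas3. It was larger in ear for Areg, Crnn, Cxcl2, Slpi, Sprr2a2, Gjb2, Ccl20 and Tnf. The same held for Mki67, Cdkn2a, Cdk1, Cenpa, Cenpe, E2f2, E2f7 and Rrm2. The flow cell, donor age and handling of ear and grafts cannot be told apart within a genotype.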
